A study of Mus musculus with 18 samples.

Results

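The 46 genes described here encode plasma proteins of the complement and coagulation cascades, and they were taken by gene symbol from the 25266 genes listed for each mouse. Of these, 25 belong to complement and 21 to coagulation and its inhibitors and fibrinolysis. Among the complement genes, C6, C8a, C8b, C8g and C9 encode terminal components and the other 20 encode earlier components and regulators. All 46 had a mean of at least 0.5 RPKM over the mice and were among the 11090 genes tested. A gene was placed in its set by its symbol, but the 46 genes and their sets were chosen with earlier results of these data known. The shares of all genes given beside their counts are therefore descriptions and not tests. RPKM are reads scaled by gene length and by the depth of the library, so that genes can be set side by side. Their sum still differed between mice, from 312292 in FF HFD mouse 3 to 397753 in FF CD mouse 2. Comparisons between mice therefore depend in part on the scaling.

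Livers of male C57BL/6 mice were compared between 4 groups, in a study of SAPS3, a regulatory subunit of protein phosphatase 6 encoded by Ppp6r3. FF mice carry ppp6r3 fl/fl alleles, with floxed copies of the gene that remain intact. LKO mice carry the same alleles together with Alb-Cre, a recombinase under the promoter of albumin, a hepatocyte gene, so that other cells of the liver keep Ppp6r3. Each genotype received a control diet (CD, 10% of calories from fat) or a high fat diet (HFD, 32.5%) for 16 weeks from 8 weeks of age. There were 4 FF CD, 4 LKO CD, 5 FF HFD and 5 LKO HFD mice, with 1 library each.

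Hepatocytes make most of the complement and coagulation proteins of the plasma and secrete them as inactive precursors. Complement is started by antibody through C1, by lectins or by spontaneous turnover of C3, and the routes meet where C3 and then C5 are cleaved. C5b next gathers C6, C7, C8 and many copies of C9 into the membrane attack complex, a pore in the target membrane, and the C8 in it is built from an alpha, a beta and a gamma chain with a gene for each. Coagulation runs through a chain of serine proteases to thrombin, which cuts fibrinogen, a protein of alpha, beta and gamma chains, into the fibrin that plasmin later dissolves.

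Sequencing depth recovered from the values was 2.34e+07 to 3.7e+07 reads per mouse, and Pearson's r across genes between mice of 1 group was 0.974 to 0.993 over 32 pairs. Ppp6r3 itself stood at 8.38 to 10.98 RPKM in FF CD, 3.88 to 4.08 in LKO CD, 7.55 to 8.82 in FF HFD and 4.22 to 4.87 in LKO HFD mice. FF and LKO mice did not overlap on either diet, with log2 fold changes of -1.04 ± 0.08 (SE) on CD and -0.72 ± 0.07 on HFD (adjusted p = 6.72e-07 and 7.14e-06, limma). A set of 6 hepatocyte markers summed to between 30135 and 47710 RPKM in every mouse, and their changes with diet are given beside those of the 46 genes. A gene counts as called where its adjusted p was under 0.05 and its fold change over 1.5, in 1 limma fit of log2(RPKM + 1) over all mice with Benjamini-Hochberg adjustment across the 11090 genes. Nothing in the labels ties mice to litters or days. The limma p-values set each group difference against the spread between these mice, with the variance partly shared across genes. In whole liver, fewer cells of a type and less RNA per cell cannot be told apart.

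Levels of the 46 genes ranged widely. The chains of fibrinogen were the most abundant, with means over all mice of 1899 RPKM for Fgb, 1216 for Fgg and 1096 for Fga, followed by the central component C3 at 836. The lowest were the adipose-derived protease factor D (Cfd), at 0.694 RPKM, and properdin (Cfp), at 6.35. In all, 27 of the 46 had a mean of at least 100 RPKM and 7 lay under 20. C7, the component that joins the membrane attack complex between C6 and C8, is not among the 46 and was not tested, since it stood at only 0.13 to 0.92 RPKM in these livers. Together the 46 genes took 3.53 to 3.70% of the summed RPKM of FF CD mice, 3.25 to 3.45% in LKO CD, 2.89 to 3.28% in FF HFD and 3.32 to 4.36% in LKO HFD mice. FF HFD mice thus had the lowest range, which met that of the LKO CD mice only at its upper end.

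C6, C8a, C8b and C9 were lower in FF mice on HFD than on CD, and the drop was steepest in C8b. C8b, the beta chain of C8, stood at 139.8, 136, 148 and 133 RPKM in the 4 FF CD mice. In the 5 FF HFD mice it was 38.3, 16.95, 19.1, 39.6 and 33.1 RPKM. Every FF HFD mouse lay far below every FF CD mouse. The log2 fold change was -2.29 ± 0.20 (SE), which is 4.87-fold lower (adjusted p = 1.21e-06, limma).

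C6, the first component to bind C5b, stood at 106, 115, 118 and 82.7 RPKM in FF CD mice. In FF HFD mice it was 36.4, 16.95, 31.8, 37.6 and 26.3 RPKM. All HFD values lay below all CD values, and the log2 fold change was -1.83 ± 0.21 (adjusted p = 1.52e-05, limma). C8a, the alpha chain of C8, was 171, 219, 187 and 159 RPKM in FF CD mice. It was 101, 65.5, 88.6, 105 and 68.9 RPKM in FF HFD mice, again without overlap (-1.11 ± 0.16 on the log2 scale, adjusted p = 1.35e-04, limma). C9, the component that forms the wall of the pore, was 241, 267, 246 and 172 RPKM on CD. On HFD it was 148, 127, 138, 112 and 108 RPKM, the smallest of the 4 decreases but also without overlap (-0.86 ± 0.16, adjusted p = 0.00141, limma). In each of the 4 genes the exact two-sided permutation p was 0.0159, in a comparison of 4 with 5 mice whose smallest p is 0.0159.

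The gamma chain C8g did not follow the other chains of C8. It stood at 156, 159, 134 and 109 RPKM in FF CD mice and 186, 137, 69.2, 124 and 149.5 RPKM in FF HFD mice, so that the HFD range enclosed the CD range. The log2 fold change was -0.12, with a 95% confidence interval of -0.56 to 0.32 (adjusted p = 0.736, limma). The ratio of C8b to C8g in the same library was 0.860 to 1.22 in FF CD mice and 0.124 to 0.320 in FF HFD mice. Ratios of C8a to C8b rose from 1.20 to 1.60 in FF CD mice to 2.08 to 4.63 in FF HFD mice, so the decrease of the beta chain was also steeper than that of the alpha chain within each library.

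**Figure D1:**
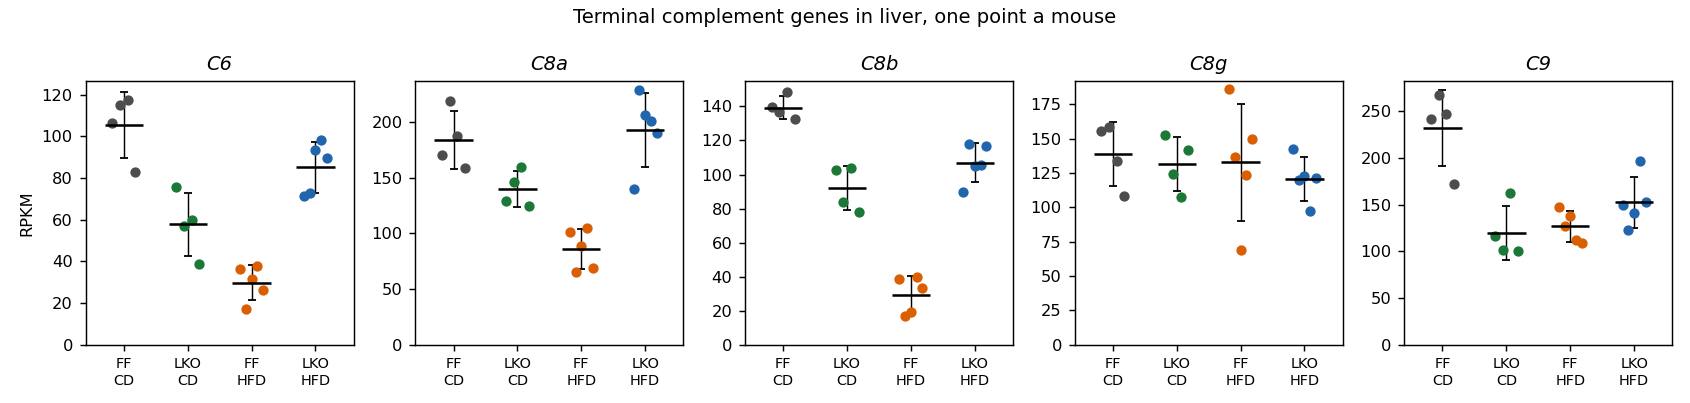
RPKM of the 5 terminal complement genes (vertical axes, linear, from 0) in the 4 groups (horizontal axis). Points are single mice, horizontal bars the group means and vertical bars the SD. C6, C8a and C8b fall in FF HFD mice alone below every other group's range, C9 is high in FF CD mice, and C8g shows no separation of the groups.

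LKO mice did not show these decreases on HFD. C8b was 103, 84.1, 104 and 78.2 RPKM in LKO CD mice and 89.4, 118, 105, 106 and 116 RPKM in LKO HFD mice, and C6 was 75.7, 57.0, 59.6 and 38.8 and 71.3, 72.7, 93.5, 98.2 and 89.7 RPKM. The log2 fold changes with diet in LKO mice were 0.22 ± 0.20 for C8b, 0.58 ± 0.21 for C6, 0.45 ± 0.16 for C8a and 0.36 ± 0.16 for C9, none of them past the adjusted p (limma adjusted p = 0.560, 0.118, 0.108 and 0.208). All 4 estimates were above 0. The difference between the diet responses of the genotypes, tested as an interaction, was 2.50 ± 0.28 for C8b, 2.40 ± 0.29 for C6, 1.56 ± 0.22 for C8a and 1.22 ± 0.23 for C9. Each was called (limma adjusted p = 1.26e-04, 1.55e-04, 7.09e-04 and 0.00657), and C8g was not (adjusted p = 0.998). In all, 9 of the 46 genes were called with a higher diet response in LKO mice, against 0.947% of the 11090 genes.

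Between the genotypes on HFD, C8b, C6 and C8a were higher in LKO mice. C8a was 139.5, 229, 207, 201 and 190.5 RPKM in LKO HFD mice, all above the FF HFD mice. The log2 fold changes were 1.90 ± 0.19 for C8b, 1.52 ± 0.20 for C6 and 1.17 ± 0.15 for C8a (limma adjusted p = 1.23e-05, 2.01e-04 and 1.97e-04), and none of the 3 genes overlapped between the groups (exact permutation p = 0.00794 each, two-sided, the smallest possible with 5 against 5). C9 was 149, 122, 141, 197 and 152 RPKM in LKO HFD mice and overlapped with the FF HFD mice, at a log2 fold change of 0.26 with a 95% confidence interval of -0.06 to 0.58 (adjusted p = 0.372, limma). Both comparisons use the same FF HFD mice, so the decrease with diet in FF mice and the excess of LKO over FF mice on HFD are not separate measurements.

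On CD, the LKO mice had less C9 than FF mice. C9 was 116, 101, 162 and 100.1 RPKM in LKO CD mice, below all FF CD mice, and the log2 fold change was -0.96 ± 0.17 (adjusted p = 0.0176, limma, exact permutation p = 0.0286). C9 was the only one of the 46 genes called between the genotypes on CD, where 0.225% of all genes were called. C6 and C8b did not overlap between FF CD and LKO CD mice either, at log2 fold changes of -0.88 ± 0.22 and -0.60 ± 0.21, but neither passed the test over all genes (limma adjusted p = 0.123 and 0.412). C8a overlapped (-0.39 ± 0.17, adjusted p = 0.546, limma). C9 was also the only one of the 46 called between LKO HFD and FF CD mice, at -0.60 ± 0.16 (adjusted p = 0.0269, limma), against 3.17% of all genes. Both of these calls of C9 were lost without any of 5 single mice, and the comparisons share the FF CD mice.

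The 4 genes lie in pairs on the genome. In GENCODE M21 on GRCm38, C6 spans chr15:4727175-4814967 and C9 chr15:6445327-6498751, with C7 between them. C8b at chr4:104766317-104804548 and C8a at chr4:104815679-104876398 are separated by 11.1 kb and are transcribed towards each other, and C8g at chr2:25498651-25501719 lies apart from both. The genes for fibrinogen also form a group, with Fgg at chr3:83007724-83015049, Fga at chr3:83026076-83033627 and Fgb, on the opposite strand, at chr3:83040141-83049863. All are protein-coding.

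The sequence before the start of each of these 7 genes is given because the terminal genes and the fibrinogen genes each moved together in different ways. The bases are those of the coding strand, 5′ to 3′, from the RefSeq promoters of GRCm38.p6, and each ends just before the start of the gene as RefSeq or GENCODE places it, whichever lies farther upstream. Capitals mark matches to letters known from liver promoters, searched on both strands: GTTAATNAT for HNF1, CAAAGNNCA for HNF4, TTGCNNAA for C/EBP, TTCNNNGAA for STAT factors and CTGGGAA for the response to interleukin-6, with TATAAA on the coding strand as the sixth. The windows lie at chr15:4726960-4727174 (C6), chr4:104876399-104876648 (C8a, minus strand), chr4:104766067-104766316 (C8b), chr15:6445096-6445326 (C9), chr3:83025903-83026075 (Fga), chr3:83049864-83050113 (Fgb, minus strand) and chr3:83007474-83007723 (Fgg).
C6: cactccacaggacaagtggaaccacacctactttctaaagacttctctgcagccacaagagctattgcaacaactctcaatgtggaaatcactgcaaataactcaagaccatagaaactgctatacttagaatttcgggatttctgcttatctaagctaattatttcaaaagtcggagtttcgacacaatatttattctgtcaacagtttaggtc
C8a: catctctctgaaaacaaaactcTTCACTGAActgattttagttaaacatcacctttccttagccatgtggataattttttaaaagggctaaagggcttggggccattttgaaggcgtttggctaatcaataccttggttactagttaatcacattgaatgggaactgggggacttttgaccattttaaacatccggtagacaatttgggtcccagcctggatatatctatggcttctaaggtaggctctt
C8b: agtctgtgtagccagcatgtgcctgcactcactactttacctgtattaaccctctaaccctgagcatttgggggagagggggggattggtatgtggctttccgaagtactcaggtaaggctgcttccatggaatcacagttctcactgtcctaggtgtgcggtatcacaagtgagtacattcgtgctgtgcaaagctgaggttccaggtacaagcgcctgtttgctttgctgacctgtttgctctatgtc
C9: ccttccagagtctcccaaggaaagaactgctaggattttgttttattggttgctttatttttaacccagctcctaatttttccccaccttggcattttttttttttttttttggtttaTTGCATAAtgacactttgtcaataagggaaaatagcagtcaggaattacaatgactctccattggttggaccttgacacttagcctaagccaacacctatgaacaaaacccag
Fga: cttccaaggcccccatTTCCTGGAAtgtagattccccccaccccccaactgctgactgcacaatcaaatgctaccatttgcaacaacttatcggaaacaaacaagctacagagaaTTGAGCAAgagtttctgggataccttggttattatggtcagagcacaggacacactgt
Fgb: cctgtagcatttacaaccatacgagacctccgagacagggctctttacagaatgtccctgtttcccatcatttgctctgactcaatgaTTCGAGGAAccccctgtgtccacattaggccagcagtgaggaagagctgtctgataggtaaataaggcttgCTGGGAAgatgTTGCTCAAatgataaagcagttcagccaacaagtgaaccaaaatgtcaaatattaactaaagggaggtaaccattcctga
Fgg: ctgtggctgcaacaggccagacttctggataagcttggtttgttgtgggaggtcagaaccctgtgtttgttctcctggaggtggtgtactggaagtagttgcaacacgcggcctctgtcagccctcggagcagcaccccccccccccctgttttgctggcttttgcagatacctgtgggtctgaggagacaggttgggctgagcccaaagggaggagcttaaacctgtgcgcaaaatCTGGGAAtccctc
The windows of C6 and C8b held none of the letters. That of C8a held 1 STAT match, 228 bases before the RefSeq start, and that of C9 held 1 C/EBP match at 132 bases. Fgb held a C/EBP, a STAT and a CTGGGAA match, Fgg a CTGGGAA match 13 bases before the start, and Fga a C/EBP and a STAT match. Nearer to the RefSeq start, in bases that GENCODE places inside the gene and that are not printed, Fga held an HNF4 match at 78 and an HNF1 match at 46 bases. RefSeq windows of 250 bases were found for 35 of the 46 genes. The HNF1 letters were in 4 of these 35 (11.4%) and in 0.737% of 32851 windows of the mouse genome, and the C/EBP letters were in 7 (20%) and in 9.56%. The HNF4 letters were in 4 (11.4%, against 5.49%), the STAT letters in 6 (17.1%, against 7.02%), CTGGGAA in 5 (14.3%, against 9.10%) and TATAAA in 2 (5.71%, against 7.59%). A match is a description of the letters and not of a bound factor.

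Of all 46 genes, 10 were called lower in FF mice on HFD, against 1.49% of all genes tested, and 1 was called higher, against 5.11%. With the RPKM of each mouse rescaled to the same sum 6 were called lower, and with quantile normalization or centring on the median 10 and 11. By the adjusted p alone 19 were lower, against 4.79% of all genes, and 1 was higher, against 15.8% of all genes. FF CD and FF HFD mice did not overlap, with HFD lower, in 16 of the 46, against 4.24% of all genes. Terminal complement held 4 of the 10 calls from its 5 genes, the other complement genes 3 from 20 and coagulation 3 from 21. The median log2 fold change was -1.11 for the terminal genes, -0.03 for the other complement genes and -0.36 for the coagulation genes, and 0.07 for all genes tested. By the adjusted p alone 5 of the 20 other complement genes and 10 of the 21 coagulation genes were lower. Markers of cell types moved in the same comparison. Of the 6 hepatocyte markers, Apoa1 (-0.72 ± 0.15) and the urea cycle enzyme Cps1 (-1.24 ± 0.18) were called lower without overlap (limma adjusted p = 0.00276 and 1.57e-04), and the other 4 were not called, with estimates from -0.32 to 0.22. Of 6 markers of sinusoidal endothelium, none at 0, 4 were called higher, and their sums were 18.3 to 41.3 RPKM in FF CD, 13.98 to 39.9 in LKO CD, 47.0 to 77.2 in FF HFD and 36.6 to 52.3 in LKO HFD mice. The part of these changes in the complement and coagulation values was not tested.

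**Figure D2:**
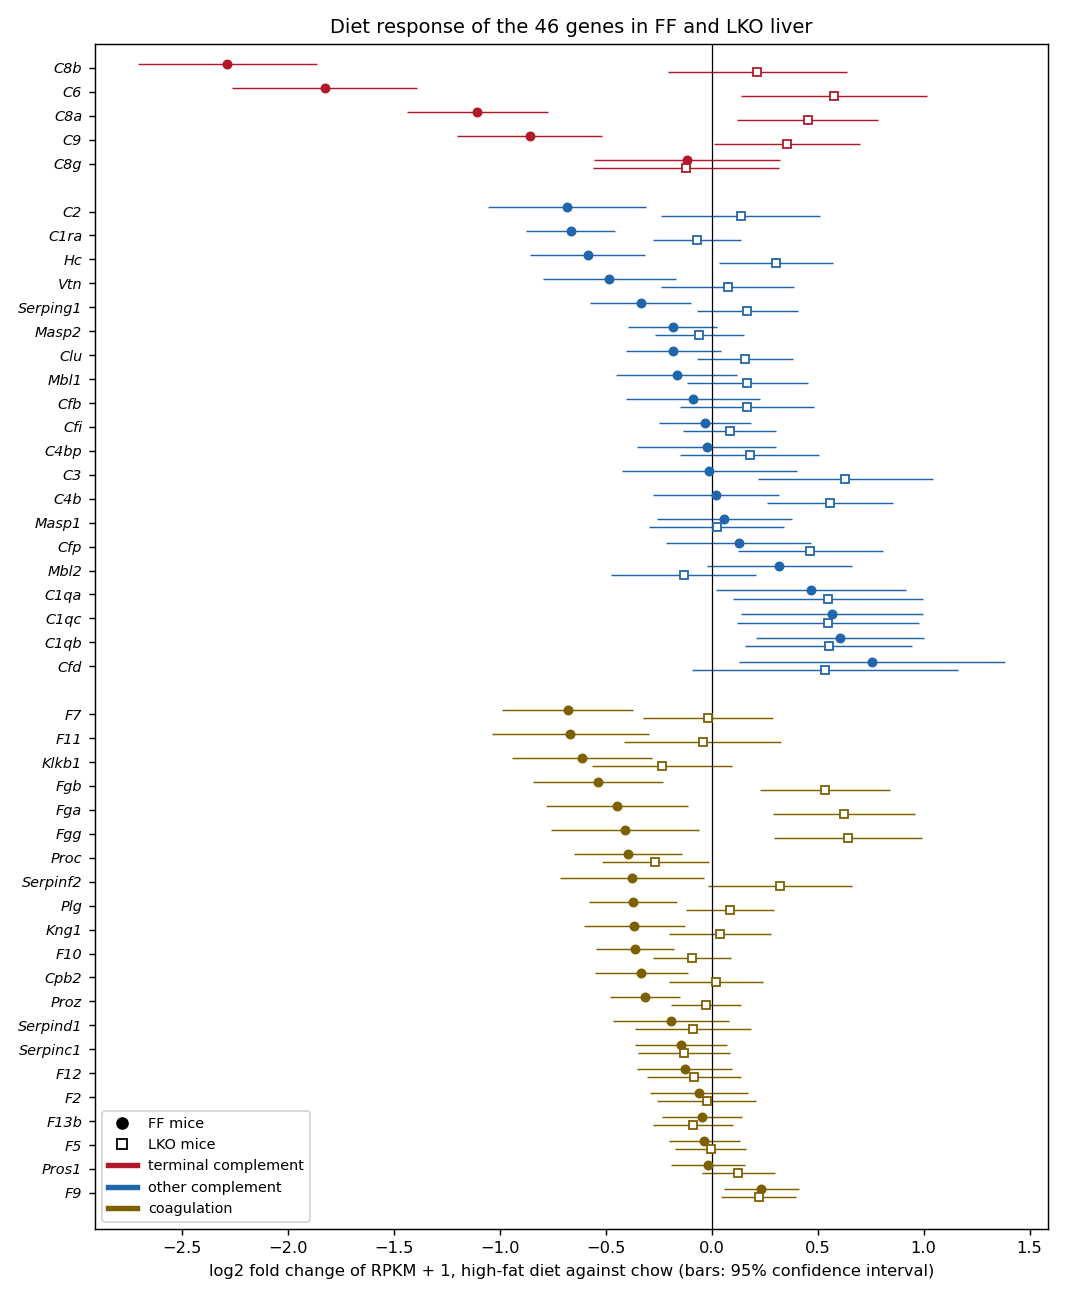
Log2 fold changes of HFD against CD (horizontal axis, on log2(RPKM + 1)) for the 46 genes (vertical axis, by set), with filled circles for FF mice, open squares for LKO mice and bars for 95% confidence intervals of the limma fit. C8b, C6, C8a and C9 lie farthest to the left in FF mice, most coagulation genes lie moderately to the left, and fibrinogen moves to opposite sides in FF and LKO mice.

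Among the other complement genes, C1ra, C2 and Hc were lower in FF mice on HFD. C1ra, which encodes a protease of the C1 complex, was 127, 119, 136 and 118 RPKM in FF CD mice. In FF HFD mice it was 85.5, 84.5, 69.2, 79.6 and 74.4 RPKM, without overlap (-0.67 ± 0.10, adjusted p = 1.86e-04, limma). C2, which supplies the protease of the classical and lectin C3 convertase, was 34.1, 37.0, 44.5 and 25.3 and 25.7, 22.5, 13.8, 21.9 and 24.0 RPKM. These groups overlapped by 1 mouse on each side (-0.68 ± 0.18, adjusted p = 0.0113, limma). Hc, the gene for C5, was 111, 132, 129 and 90.1 RPKM in FF CD and 91.6, 78.2, 63.5, 76.4 and 72.5 RPKM in FF HFD mice, with the lowest CD mouse just below the highest HFD mouse (-0.59 ± 0.13, adjusted p = 0.00383, limma). Hc was 1.5006-fold lower, just past the threshold of 1.5. Its call was lost without any of 4 single mice, with rescaling to the same sum and with the replicate number as a block. That of C2 was lost without either of 2 single mice. In LKO mice C1ra was 118, 102, 109 and 105 RPKM on CD and 102, 114, 105, 117 and 83.7 on HFD, and Hc was 82.8, 89.4, 84.9 and 82.2 and 80.3, 109, 111, 119 and 109. C2 averaged 23.2 RPKM in LKO CD and 25.5 RPKM in LKO HFD mice. Its difference between LKO CD and FF CD mice was not called (-0.57 ± 0.19, adjusted p = 0.331, limma). The diet responses of C1ra and Hc differed between the genotypes, by 0.60 ± 0.14 and 0.89 ± 0.18 (limma adjusted p = 0.0268 and 0.0112), while that of C2 was not called (adjusted p = 0.0932). The interaction call of C1ra was lost without any of 8 single mice and with rescaling to the same sum (0.53 on the log2 scale). Reads of C1ra may have been shared with its near-identical neighbour C1rb, which was not examined.

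C1qa, C1qb and C1qc, whose products form the recognition part of C1 and are made by macrophages, had estimates above 0 in FF mice. C1qb was 13.97, 15.0, 12.1 and 19.2 RPKM in FF CD and 13.97, 28.4, 31.7, 24.5 and 21.3 RPKM in FF HFD mice, which overlapped, and it was the 1 gene of the 46 called higher (0.61 ± 0.19, adjusted p = 0.0291, limma). This call was lost without any of 6 single mice and under 5 other settings, at 0.51 on the log2 scale with each mouse centred on its median, 0.53 with quantile normalization and an adjusted p of 0.0546, 0.0687 and 0.0532 (limma) with no filter on low values, with only the groups compared and with no sharing of the variance between genes. C1qa and C1qc had log2 fold changes of 0.47 ± 0.21 and 0.57 ± 0.20 and were not called (limma adjusted p = 0.129 and 0.0563). In LKO mice the estimate for C1qb was 0.55 ± 0.19, and it was not called (adjusted p = 0.10003, limma). The genes kept their proportions, with C1qa at 0.834 to 1.09 and C1qc at 0.832 to 1.11 times C1qb over all 18 mice. Their summed level was 34.8 to 55.8 RPKM in FF CD, 32.2 to 47.0 in LKO CD, 38.1 to 88.3 in FF HFD and 47.8 to 76.7 in LKO HFD mice. The 8 Kupffer cell markers, none at 0, moved beside them, with sums of 46.9 to 66.7, 40.9 to 65.2, 56.7 to 115.2 and 56.5 to 109.7 RPKM in the same order. The part of these cells in the C1q values was not tested.

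**Figure D3:**
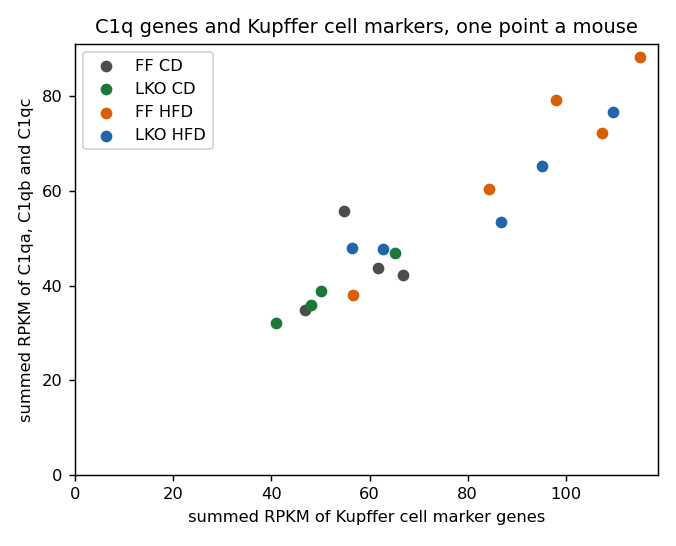
Summed RPKM of C1qa, C1qb and C1qc (vertical axis) against the summed RPKM of 8 Kupffer cell marker genes (horizontal axis), both linear from 0, with 1 point for each of the 18 mice coloured by group. Mice with higher marker sums also have higher C1q sums, and the FF HFD mice span the range from 38.1 to 88.3 RPKM of C1q.

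The remaining 14 other complement genes were called in none of the 6 comparisons. C3 was 755 ± 62.8 RPKM (SD, n = 4) in FF CD, 689.9 ± 119 (n = 4) in LKO CD, 763 ± 161 (n = 5) in FF HFD and 1091 ± 296 (n = 5) in LKO HFD mice. Its increase with diet in LKO mice, 0.63 ± 0.20 on the log2 scale, did not pass the adjusted p (0.0741, limma), and neither did its excess over FF HFD mice (0.50 ± 0.19, adjusted p = 0.142, limma). C4b, the target of the C1 proteases, was the only other complement gene to pass the adjusted p between diets in LKO mice, at 0.56 ± 0.14 with a fold change under 1.5 (adjusted p = 0.0398, limma). Its values are uncertain, as reads of the related gene C4a may be shared with it. The regulator C1 inhibitor (Serping1) and vitronectin (Vtn), which holds back the terminal complex, passed the adjusted p in FF mice below 1.5-fold, at -0.34 ± 0.11 and -0.48 ± 0.15 (limma adjusted p = 0.0427 and 0.0284). Factor B (Cfb), factor I (Cfi), C4bp, Masp1, Masp2, Mbl1, Mbl2, Cfp and clusterin (Clu) had diet responses in FF mice between -0.18 and 0.32 on the log2 scale and passed the adjusted p in none of the comparisons. Cfd was at 0.04 to 2.40 RPKM, with its highest mice on HFD, beside sums of 7 adipocyte markers of 3.599 to 8.51 RPKM on CD and 5.90 to 43.2 RPKM on HFD. Whether adipose tissue in the samples had a part in Cfd was not tested.

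The fibrinogen genes moved as a unit and differed between the genotypes on HFD. Fga was 877, 763, 699.6, 958 and 764 RPKM in FF HFD mice and 930.3, 1427, 1828, 1652 and 1638 RPKM in LKO HFD mice. Fgb was 1402, 1228, 1187, 1577 and 1310.1 and 1654, 2453, 2863, 2761 and 3068 RPKM in the same groups. Fgg was 1036, 823, 745, 1044 and 874 and 1044, 1534, 2003, 1719.6 and 2094 RPKM. In each gene 4 of the 5 LKO HFD mice lay well above the FF HFD mice, and LKO HFD mouse 1, at 930.3, 1654 and 1044 RPKM, was the lowest. It lay just above the highest FF HFD mouse for Fgb, level with it for Fgg and within the FF HFD range for Fga. The log2 fold changes of LKO against FF mice on HFD were 0.85 ± 0.15, 0.91 ± 0.14 and 0.86 ± 0.16 for Fga, Fgb and Fgg (limma adjusted p = 0.00361, 9.57e-04 and 0.00436). Without LKO HFD mouse 1 they were 1.01, 1.06 and 1.02.

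The diet response of fibrinogen had opposite signs in the genotypes. On CD, Fga was 1171, 1276, 1026 and 952 RPKM in FF mice and 976, 943, 925 and 932 RPKM in LKO mice. In FF mice the log2 fold changes with HFD were -0.44 ± 0.16, -0.54 ± 0.15 and -0.41 ± 0.17 for Fga, Fgb and Fgg, and Fgb alone passed the adjusted p, at less than 1.5-fold (limma adjusted p = 0.0555, 0.0146 and 0.0880). In LKO mice the log2 fold changes were 0.63 ± 0.16, 0.53 ± 0.15 and 0.64 ± 0.17, of which Fga and Fgg were called and Fgb fell short of 1.5-fold (limma adjusted p = 0.0398, 0.0471 and 0.0405). These were the 2 calls of the 46 genes in LKO mice, against 1.27% of all genes, and by the adjusted p alone 4 were higher, against 3.44%. Both calls were lost when 1 mouse was left out, for 8 or 9 of the 18 mice. They were also lost with no filter on low values, quantile normalization, centring, only the groups compared and no sharing of the variance, at limma adjusted p of 0.0527 to 0.102. The interaction was 1.07 ± 0.23, 1.07 ± 0.21 and 1.06 ± 0.24, and each was called (limma adjusted p = 0.0134, 0.00734 and 0.0193). That of Fgg was lost with no filter on low values (adjusted p = 0.0544, limma).

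Within each library the chains stayed in nearly constant proportion. Fga was 0.7824 to 1.0004 times Fgg over all 18 mice, and Fgb was 1.353 to 1.88 times Fgg. Fibrinogen as a whole took 1.06 to 1.21% of the summed RPKM in FF CD, 0.962 to 1.05% in LKO CD, 0.776 to 1.0012% in FF HFD and 0.9751 to 1.95% in LKO HFD mice.

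**Figure D4:**
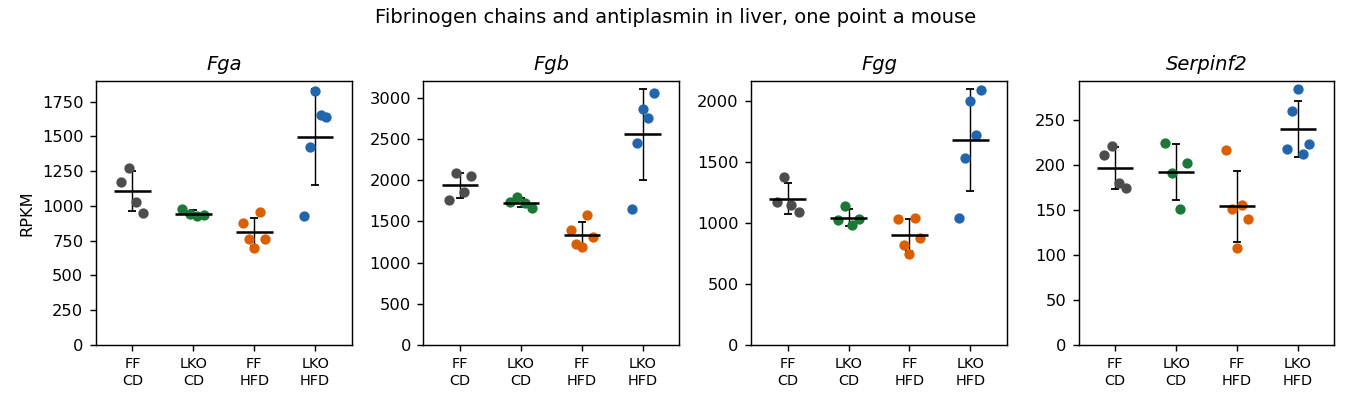
RPKM of the fibrinogen genes Fga, Fgb and Fgg and of Serpinf2 (vertical axes, linear, from 0) in the 4 groups (horizontal axis). Points are single mice, horizontal bars the group means and vertical bars the SD. For fibrinogen, 4 LKO HFD mice lie above all mice of the other groups and the fifth lies among them.

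Of the other 18 coagulation genes, F7, F11 and Klkb1 were called lower in FF mice on HFD. F7, the protease that tissue factor sets off, was 38.1, 38.3, 39.0 and 33.5 RPKM in FF CD and 30.7, 24.9, 14.7, 24.0 and 22.8 RPKM in FF HFD mice, without overlap (-0.68 ± 0.15, adjusted p = 0.00340, limma). F11, of the contact pathway, was 29.4, 29.0, 23.5 and 31.8 and 19.5, 12.1, 15.5, 20.4 and 21.4 RPKM, also without overlap (-0.67 ± 0.18, adjusted p = 0.0120, limma). Klkb1, the gene for plasma prekallikrein and the neighbour of F11 on chromosome 8, was 77.8, 72.3, 75.6 and 64.7 and 63.4, 47.7, 34.4, 46.2 and 48.0 RPKM, with the groups again apart (-0.61 ± 0.16, adjusted p = 0.0103, limma). FF HFD mouse 3 was the lowest for F7 and Klkb1 and the second lowest for F11. Without it only 6 of the 46 genes were called in FF mice, and F7 and Klkb1 were not among them, at -0.53 and -0.50 on the log2 scale. None of these 3 genes was called in LKO mice, where F7 was 32.8, 26.4, 28.4 and 32.2 RPKM on CD and 30.3, 33.1, 32.1, 27.6 and 24.9 on HFD, nor in the interaction (limma adjusted p = 0.0997, 0.208 and 0.424), so a difference in their diet response was not shown.

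A further 6 genes besides Fgb passed the adjusted p in FF mice below 1.5-fold. These were F10, protein C (Proc), protein Z (Proz), plasminogen (Plg), the fibrinolysis inhibitor Cpb2 and kininogen (Kng1), with log2 fold changes between -0.39 and -0.32. Kng1 values are uncertain because of the similar gene Kng2. Thrombin (F2), F5, F9, F12, F13b, Pros1, Serpinf2, antithrombin (Serpinc1) and heparin cofactor II (Serpind1) did not pass, and of these F9 had the highest estimate, at 0.23 ± 0.08 (adjusted p = 0.0555, limma). F9 on chromosome X was thus the 1 coagulation gene of 21 with an estimate above 0.

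Serpinf2, the gene for the plasmin inhibitor alpha2-antiplasmin, was the other coagulation gene called between the genotypes on HFD. It was 216, 151, 108, 155 and 139 RPKM in FF HFD and 217, 259.7, 284, 212 and 223 RPKM in LKO HFD mice, where the highest FF mouse exceeded the lowest LKO mouse (0.66 ± 0.15, adjusted p = 0.0212, limma). Its call was lost without any of 4 single mice and with only the groups compared (adjusted p = 0.0614, limma). With the 3 terminal genes and fibrinogen this made 7 of the 46 called higher in LKO HFD than in FF HFD mice and none lower, against 0.902% of all genes called higher. By the adjusted p alone 10 were higher, against 2.10%, the others being C1ra, Hc and Proz at log2 fold changes of 0.40 ± 0.09, 0.46 ± 0.12 and 0.27 ± 0.07. The groups did not overlap, with LKO higher, in 7 of the 46, Fgg among them by a margin lost in rounding, against 2.65% of all genes. The median log2 fold change was 1.17 for the terminal, 0.14 for the other complement and 0.21 for the coagulation genes, and 0.03 for all genes.

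In LKO mice the medians of HFD against CD were 0.36 for the terminal, 0.17 for the other complement and -0.02 for the coagulation genes, and 0.07 for all genes. Within a library the scaling of the sample drops out of the difference between the mean log2(RPKM + 1) of the 5 terminal genes and that of the 21 coagulation genes. This difference was -0.43 to -0.15 in FF CD, -0.99 to -0.55 in LKO CD, -1.52 to -0.99 in FF HFD and -0.69 to -0.42 in LKO HFD mice. The FF HFD mice were lowest, and the highest of them came up to the lowest LKO CD mouse. Of the FF CD mice 3 were above all others, while FF CD mouse 4, at -0.43, lay just below LKO HFD mice 4 and 5, so that these groups overlapped, as did the LKO groups with each other. Against the other 20 complement genes the terminal genes were at 0.77 to 1.05 in FF CD, 0.26 to 0.66 in LKO CD, -0.64 to 0.07 in FF HFD and 0.32 to 0.75 in LKO HFD mice.

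**Figure D5:**
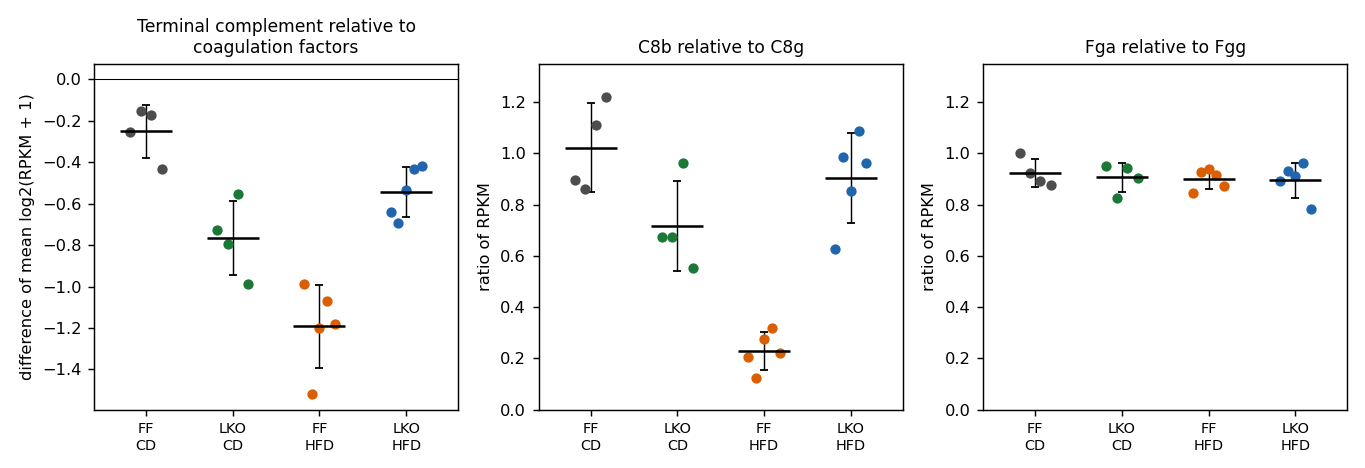
Left, the mean log2(RPKM + 1) of the 5 terminal complement genes minus that of the 21 coagulation genes in each mouse. Middle and right, the ratios of RPKM of C8b to C8g and of Fga to Fgg (linear axes from 0), with points for mice, horizontal bars for means and vertical bars for the SD. The first 2 measures are lowest in FF HFD mice and the Fga to Fgg ratio stays between 0.7824 and 1.0004 in all groups.

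Across other genes of both pathways, 37 of 57 listed were tested. In FF mice on HFD 3 were called lower, against 1.49% of all genes, and 5 higher, against 5.11%. Those lower were Susd4, which encodes a membrane-bound complement regulator, C4a, the sex-limited relative of C4b, and Serpine2, an inhibitor of thrombin and plasminogen activators. Susd4 was 12.5 to 16.4 RPKM in FF CD and 2.58 to 7.10 in FF HFD mice (-1.56 ± 0.22, adjusted p = 1.36e-04, limma). Its diet response differed between the genotypes by 1.60 ± 0.32 (adjusted p = 0.00867, limma), and it was called higher in LKO than in FF mice on HFD (0.82 ± 0.21, adjusted p = 0.0373). That call of Susd4 on HFD was lost without any of 6 single mice. C4a and Serpine2 had diet responses in FF mice of -1.54 ± 0.42 and -1.37 ± 0.29 (limma adjusted p = 0.0146 and 0.00326), and interactions of 2.48 ± 0.59 and 1.94 ± 0.42 (limma adjusted p = 0.0297 and 0.0152). Values of C4a are uncertain, as reads may be shared with C4b. Its interaction call was lost without any of 8 single mice, and with no filter or no sharing of the variance (limma adjusted p = 0.081 and 0.079). The genes called higher in FF mice included Vwf, Tfpi2, Vsig4 and Cd55.

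Genes with a male or female pattern in mouse liver moved beside the terminal genes in these male mice. Of 10 male-biased genes 8 were called lower in FF mice on HFD, against 1.49% of all genes. On HFD 7 were called higher in LKO than in FF mice, against 0.902% of all genes. On CD 3 were called lower in LKO than in FF mice, against 0.135% of all genes. The sum of the 10 was 15760 to 27580 RPKM in FF CD, 6581 to 11103 in LKO CD, 3644 to 8193 in FF HFD and 9844 to 23288 in LKO HFD mice. Hsd3b5, a steroid dehydrogenase of male liver, was 96.6 to 154 RPKM in FF CD, 0.05 to 3.94 in FF HFD and 44.3 to 73.5 in LKO HFD mice. Of 9 female-biased genes listed only 2 were tested, and these 2 were called higher in FF mice on HFD, against 5.11% of all genes. The female-biased Cyp2b9 was 0.00 to 0.02 RPKM in FF CD, 30.4 to 124.7 in FF HFD and 0.11 to 1.48 in LKO HFD mice. FF HFD mouse 2, which had the least C8b and C6, also had the most Cyp2b9. It did not have the lowest male-biased sum, as these sums were 8193, 5345, 4620, 4316 and 3644 RPKM in the 5 FF HFD mice in order. The mouse was picked after its values were seen. The part of this pattern in the complement values was not tested.

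Of 21 tested regulators of secreted liver proteins, 3 were called between the diets in FF mice, against 6.6% of all genes. On HFD, Foxa3 (-0.80 ± 0.16) and Bcl6 (-1.02 ± 0.32) were called lower and Stat5a (0.68 ± 0.10) higher (limma adjusted p = 0.00162, 0.0313 and 2.61e-04). In LKO mice 2 of the 21 were called higher on HFD, where 1.27% of all genes were called in either direction. Stat3, which transmits the interleukin-6 signal, was 1 of these 2 (0.996 ± 0.23, adjusted p = 0.0266, limma). Foxa3 was the 1 regulator called higher in LKO than in FF mice on HFD, against 0.902% of all genes. That call of Foxa3 was lost with each of the 3 scalings and without any of 7 single mice. Of 14 other acute phase genes, 2 were called higher in LKO than in FF mice on HFD, against 0.902% of all genes, Itih3 (0.76 ± 0.18) and Steap4 (1.05 ± 0.28), with limma adjusted p of 0.0249 and 0.0402. Both calls were lost with no filter on low values, with only the groups compared and with no sharing of the variance between genes, as was that of Stat3. The calls of Bcl6 in FF mice and of Foxa3 between the genotypes were also lost with no filter and with no sharing of the variance. Their limma adjusted p was then 0.060 to 0.064. Rescaling to the same sum ended the call of Steap4 too (adjusted p = 0.053, limma). With quantile normalization Stat5a missed the fold in FF mice, at 0.58. Without single mice the calls of Bcl6, Stat3 and Itih3 were each lost for 5 mice, and that of Steap4 for 10. Saa1 ranged from 13.3 to 973.3 RPKM within the FF CD mice and from 37.2 to 1434 within the LKO HFD mice, and it was not called. What part these genes had in the values of fibrinogen was not tested.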

How the data were processed

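Total RNA from the livers of 18 mice was sequenced. The labels name both a small RNA library kit and a standard RNA-seq protocol, and which of them made these libraries could not be settled from the labels. The submitters' processing notes name HISAT2 2.0.4, Partek and the build mm10, and the authors deposited 1 RPKM value per gene and mouse. The counting rule, annotation, strand and treatment of multiply mapped reads are not given in the sources used here. The deposited RPKM values were used without further scaling. The 46 genes and all lists were chosen with earlier results of these data known.

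Genes averaging 0.5 RPKM or more were fitted as log2(RPKM + 1) with the lmFit, contrasts.fit and trended eBayes functions of limma 3.58.1 in R 4.3.3, with 1 coefficient per group and all 18 mice. The pseudocount of 1 understates the change of low genes. P-values are two-sided with Benjamini-Hochberg adjustment over 11090 genes, and fold changes above 1.5 with an adjusted p under 0.05 were called. Values of single mice are given for the 15 genes called in at least 1 comparison and for C8g, the fifth terminal gene. For several of these genes they are given only for the groups of the comparison described. Exact permutation tests of mean log2 values were made in scipy 1.17.1. Deviations of mice of equal number had a median r of 0.054 over 25 pairs, against -0.012 over 96 other pairs between groups. No block was used in the main fit. Reads per mouse were recovered from the steps between low values of single-exon genes, and with RefSeq gene lengths 42.6% of low values came out whole within 0.02 reads, too few for a count test. Limma voom on estimated reads is therefore an alternative only. The fit was tested on simulated data. Alternatives were the pseudocount, the filter, 3 scalings, the mice in the fit, moderation, the replicate block, the call rule and leaving out each mouse. Positions are from GENCODE M21 (GRCm38, the mm10 build), where 24372 symbols matched, and promoters from RefSeq (GRCm38.p6). Some genes of the other pathway lists are not reported here.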

Additional observations from a re-analysis of the deposited data

Results flagged for a closer look

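The diet response differed between FF and LKO mice, by the interaction term of the limma fit on log2(RPKM + 1), in 9 of the 46 genes. The differences were 2.50 for C8b, 2.40 for C6, 1.56 for C8a, 1.22 for C9, 1.07 for Fga, 1.07 for Fgb, 1.06 for Fgg, 0.89 for Hc and 0.60 for C1ra. All were above 0, so the LKO response was the higher one in each. For the terminal genes the FF response was the larger in size, and for fibrinogen the FF estimates lay below and the LKO estimates above 0.

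In 16 genes and 4 groups each, the highest or lowest mouse stood apart by Dixon's test in 2 of the 64 sets, where chance gives about 1 in 20. Hc was 80.3 RPKM in LKO HFD mouse 1, against 109.0 to 118.6 in the other 4 mice. This mouse was also the lowest of its group for Fga, Fgb, Fgg, C6, C8a and C8b. F7 was 33.5 RPKM in FF CD mouse 4, which was also the lowest of its group for C6, C8a, C8b, C8g and C9.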

How the results depend on the processing

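The decreases of C6, C8a, C8b and C9 in FF mice on HFD, their 4 interactions and the excess of C6, C8a, C8b and the 3 fibrinogen genes in LKO over FF mice on HFD kept their direction and their call under every alternative run. Depth limits the precision of low genes such as Cfd, and 7 of the 46 had a mean under 20 RPKM.

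Calls among the 46 genes changed under some settings, and the cause was not tested. In LKO mice the 2 calls (Fga and Fgg) were replaced by Fgb and C4b with quantile normalization and became 0 with no filter on low values, with centring on the median, with only the groups compared and with no sharing of the variance, and 4 by the adjusted p alone. Between genotypes on CD the 1 call became 0 with no filter, quantile normalization, only the groups compared or no sharing of the variance. Between LKO HFD and FF CD it became 0 with no filter, rescaling to the same sum, quantile normalization or only the groups compared. In FF mice the adjusted p alone gave 20. With 1 mouse left out, the number called ranged from 6 (without FF HFD mouse 3) to 14 (without FF HFD mouse 1) in FF mice, 0 to 5 in LKO mice (5 without LKO HFD mouse 1, 0 without any of LKO CD mice 1, 3 and 4, FF HFD mouse 2 and LKO HFD mice 3 and 4), 0 to 2 between genotypes on CD (2 without FF HFD mouse 2), 6 to 8 on HFD, 0 to 3 between LKO HFD and FF CD (3 and 2 without LKO HFD mouse 1 or 4) and 8 to 11 in the interaction. The median of the other complement genes in FF mice, -0.03, became 0.063 with rescaling to the same sum and -0.12 with centring, and -0.13 (without FF CD mouse 4) to -0.0079 with 1 mouse left out. That of the coagulation genes in FF mice, -0.36, became -0.27 with quantile normalization and -0.45 with centring. In LKO mice the medians became 0.25 (quantile) and 0.072 (centring) for the other complement and -0.11 (centring) for the coagulation genes, and between LKO HFD and FF CD -0.057 and -0.18 (both centring). The interaction median of the other complement genes was 0.21 (without FF CD mouse 2) to 0.38 (without FF CD mouse 4).

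Single genes lost their call when 1 mouse was left out (smallest log2 fold change among the losses). C9 on CD did when FF CD mouse 1, 2 or 3, or else LKO CD mouse 2 or 4, was absent (-0.88), and between LKO HFD and FF CD without FF CD mouse 1, 2 or 3 or LKO HFD mouse 2 or 3 (-0.53). In FF mice, C1qb did without FF CD mouse 1, 2 or 3 or FF HFD mouse 2, 3 or 4 (0.50), C2 without FF CD mouse 3 or FF HFD mouse 3 (-0.54), Hc without FF CD mouse 2 or 3 or FF HFD mouse 3 or 5 (-0.52), F7 without FF HFD mouse 3 (-0.53), F11 without FF HFD mouse 2 (-0.55), Klkb1 without FF CD mouse 1 or FF HFD mouse 3 (-0.50) and C4a without FF CD mouse 3 (-1.42). On HFD between genotypes, Serpinf2 did without FF HFD mouse 2, 3 or 5 or LKO HFD mouse 3 (0.54) and Susd4 without any of 6 (0.69). In LKO mice, Fga did without any LKO CD mouse, FF HFD mouse 2 or LKO HFD mouse 2, 3, 4 or 5 (0.54) and Fgg without the same mice other than LKO HFD mouse 2 (0.55). Interactions were lost for C1ra without FF CD mouse 1 or 3, LKO CD mouse 2 or 4, FF HFD mouse 3 or 5 or LKO HFD mouse 2 or 4 (0.55) and for C4a without any of 8 mice (2.29). C8g in FF mice ranged from -0.26 to 0.097 and turned positive without FF HFD mouse 3. Under rescaling, C1ra (-0.58), Hc (-0.50), F11 (-0.58) and Klkb1 (-0.52) missed the fold in FF mice.

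Over all genes the calls in FF mice, 732, became 1254 with a pseudocount of 0.1, 1273 with limma voom on estimated reads and 2287 by the adjusted p alone. In LKO mice, 141 became 272, 288 and 449 in the same order, 47 with no filter, 87 with quantile normalization, 88 with centring, 40 with only the groups compared and 53 with no sharing of the variance (17 to 237 with 1 mouse left out, at 30, 17, 81 and 20 without LKO CD mouse 1, 3 or 4 or LKO HFD mouse 3 and 237 without LKO HFD mouse 1). Between genotypes, 25 on CD became 12 with no filter and 6 with no sharing of the variance (11 to 45, at 11, 15, 13 and 14 without FF CD mouse 2 or 3 or LKO CD mouse 2 or 4 and 45 without LKO CD mouse 3), and 230 on HFD became 152, 145 and, by the adjusted p alone, 466 (132 to 318, at 132 and 144 without FF HFD mouse 2 or LKO HFD mouse 3). Between LKO HFD and FF CD, 352 became 619 with a pseudocount of 0.1, 662 with voom and 1160 by the adjusted p alone (231, without LKO HFD mouse 3, to 397). The interaction, 271, became 169 with no filter, 411 with rescaling and 167 with no sharing of the variance (156 to 392, at 156, 157, 162 and 177 without FF CD mouse 3, LKO CD mouse 2 or 4 or FF HFD mouse 2). The share of calls that were higher moved with the scaling, from 77.5% in FF mice to 65.4% (quantile) and 63.5% (centring), from 75.9% in LKO mice to 55.2% and 45.5%, from 74.7% between LKO HFD and FF CD to 56.0% and 46.1%, and with rescaling to 33.2% (from 43.5%) on HFD between genotypes, to 51.6% (from 40%) on CD and to 27.3% (from 38.7%) in the interaction. The median of all genes between LKO HFD and FF CD was 0.10, and -0.03 after centring. With the replicate number as a block (deviations correlated above 0.1 in 10 of 25 pairs of equal number), 10, 3, 1, 7, 1 and 9 of the 46 genes were called in FF mice, in LKO mice, between genotypes on CD and on HFD, between LKO HFD and FF CD and in the interaction. The block ended the calls of Fga (0.61) and Fgg (0.60) in LKO mice, Hc (-0.58) and Klkb1 (-0.55) in FF mice and C9 between LKO HFD and FF CD (-0.58), and added C3, C4b and C1qc in LKO mice, C1qc in FF mice and C3 between LKO HFD and FF CD.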

Other observations

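Spread between mice of a group differed among the 46 genes. The median coefficient of variation of RPKM was 11.6% in FF CD, 8.18% in LKO CD, 14.8% in FF HFD and 13.8% in LKO HFD mice. Cfd had the highest in all 4 groups, at 61.9 to 94.9%. F5 had the lowest in LKO CD mice, where it was 52.7 ± 0.21 RPKM (SD, n = 4), and F5 was between 51.1 and 52.7 RPKM on average in every group.

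The ratio of C6 to C9, chosen after its values were seen and not tested, was 0.133 to 0.337 in FF HFD mice, below the 0.368 to 0.662 of all other mice, although both genes were called lower in FF mice. On CD, C6 and C9 had nearly the same ratio in FF mice, 0.430 to 0.479, and a wider one in LKO mice, 0.368 to 0.652.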
